A study of Mus musculus with 8 samples.

Results

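Regions of open chromatin that closed within 30 min of Ikaros induction and had no peak again up to 2 h were examined in a mouse pre-B cell line. Overlapping peaks of 8 ATAC-seq peak lists were merged into 174718 regions, of which 69814 had a peak in both lists of untreated cells. The regions described here were chosen by peak calls in these same lists: a peak in both 0 h lists and in none of the 6 lists of 30 min, 1 h and 2 h. There were 5793 such closed regions, 8.30% of the 69814. The number depends on the 0 h lists: it was 13732 without 0 h replicate 2, 12430 without 0 h replicate 1, and 2731 when 0 h peaks needed a −log10 q-value of at least 5. Closed means here that no peak was called, because the lists hold no value for a region without a peak. The weakest peaks over the most common background of a list had 3 or 4 fragments at their summit. Over a higher local background more fragments were needed. A closed region near Osgin1 with 27 fragments over a background of 7.62 stood only at percentile 0.357 of 0 h replicate 1. Accessibility below the level needed at a place cannot be seen, so a closed region beside open chromatin may still hold more than 4 fragments.

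ATAC-seq marks open DNA by the insertion of sequencing adapters with the Tn5 transposase. The cells were B3, a mouse pre-B line transduced with Ikaros-ERt2, in which a part of the estrogen receptor is fused to Ikaros (IKZF1), and 4-hydroxytamoxifen (4-OHT) sends the fusion protein into the nucleus. The 4 groups, of 2 replicates each, were B3 with Ikaros-ERt2 left untreated (0 h) and the same cells after 30 min, 1 h and 2 h in 500 nM 4-OHT. Per the study's methods the construct came from a retroviral vector. All 8 libraries carried the construct and the 0 h cells had no 4-OHT, so what Ikaros did and what 4-OHT or its carrier did cannot be told apart. The labels do not say whether replicates were separate cultures, so p-values measure the spread between these libraries, which may be technical.

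The lists held 85903 to 103897 peaks, and the shortest was that of 0 h replicate 2. Depth was read from the lists as the fragments per base in the most common background, which was 0.389 and 0.26 at 0 h and 0.305 to 0.405 in the treated libraries, so all 6 treated libraries were deeper than 0 h replicate 2 and 5 of them were shallower than 0 h replicate 1. Of the pre-B markers, Cd79a, Cd79b, Pax5, Ebf1, Igll1, Vpreb1, Rag1, Blnk and Il7r each had a peak within 1 kb of a start site in both 0 h lists. None of 4 T cell markers (Cd3e, Cd3d, Cd4, Cd8a) and none of 4 erythroid markers (Hba-a1, Hbb-bt, Gata1, Klf1) had one. Of 4 myeloid markers, Csf1r, Mpo and Itgam had none in any list, and Lyz2 had 1, which is among the closed regions.

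Ikaros is a zinc finger protein needed for lymphoid development and often lost in B cell leukaemia. It binds DNA words with a GGAA or GGGA core, can bring chromatin remodelling complexes to its sites, and in pre-B cells is known for repressing genes of the proliferating stage. Ets family proteins, which include many activators of B cell enhancers, also read a GGAA core, so a core word does not name the protein that binds it.

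The strongest closed regions are shown as examples, and the median closed region was far weaker. The 200 bp around the 0 h summit are printed for 8 of the 9 strongest closed regions, from the RefSeq GRCm38 genome, plus strand, with the Ikaros core words (GGAA or GGGA on either strand) in capitals.
Slit1 intron, chr19:41672878-41673077: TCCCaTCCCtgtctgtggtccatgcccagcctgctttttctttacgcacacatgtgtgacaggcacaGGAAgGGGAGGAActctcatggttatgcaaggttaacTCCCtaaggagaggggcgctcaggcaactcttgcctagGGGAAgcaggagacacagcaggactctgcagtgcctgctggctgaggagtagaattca
Zbtb10, chr3:9302625-9302824: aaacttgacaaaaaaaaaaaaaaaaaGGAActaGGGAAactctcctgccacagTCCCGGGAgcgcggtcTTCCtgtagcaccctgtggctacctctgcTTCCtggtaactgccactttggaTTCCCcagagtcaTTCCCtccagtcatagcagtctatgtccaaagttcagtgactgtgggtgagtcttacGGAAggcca
Cdk6 intron, chr5:3490448-3490647: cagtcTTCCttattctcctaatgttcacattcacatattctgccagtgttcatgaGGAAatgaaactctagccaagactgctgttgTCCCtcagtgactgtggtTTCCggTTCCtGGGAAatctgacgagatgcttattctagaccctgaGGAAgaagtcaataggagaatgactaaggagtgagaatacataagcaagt
Ttc34 intron, chr4:154859967-154860166: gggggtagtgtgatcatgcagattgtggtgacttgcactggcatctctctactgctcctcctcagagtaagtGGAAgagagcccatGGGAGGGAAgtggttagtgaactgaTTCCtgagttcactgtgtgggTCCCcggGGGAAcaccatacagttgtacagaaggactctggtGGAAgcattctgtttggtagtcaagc
Lyz2 promoter, chr10:117282243-117282442: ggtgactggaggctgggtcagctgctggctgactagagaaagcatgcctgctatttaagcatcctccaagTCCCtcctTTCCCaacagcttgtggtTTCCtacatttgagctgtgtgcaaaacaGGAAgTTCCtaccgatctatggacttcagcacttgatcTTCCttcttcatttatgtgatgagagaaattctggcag
Ankmy1 intron, chr1:92882439-92882638: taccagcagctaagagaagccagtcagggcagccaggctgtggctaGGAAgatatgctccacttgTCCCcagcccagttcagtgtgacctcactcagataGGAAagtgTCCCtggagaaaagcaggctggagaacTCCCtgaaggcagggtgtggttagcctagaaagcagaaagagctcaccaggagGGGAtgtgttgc
1700017N19Rik, chr10:100654279-100654478: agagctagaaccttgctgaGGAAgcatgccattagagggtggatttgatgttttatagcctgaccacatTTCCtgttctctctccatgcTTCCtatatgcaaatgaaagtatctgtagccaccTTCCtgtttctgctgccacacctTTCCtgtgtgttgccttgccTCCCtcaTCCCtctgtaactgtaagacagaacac
Npvf, chr6:50925420-50925619: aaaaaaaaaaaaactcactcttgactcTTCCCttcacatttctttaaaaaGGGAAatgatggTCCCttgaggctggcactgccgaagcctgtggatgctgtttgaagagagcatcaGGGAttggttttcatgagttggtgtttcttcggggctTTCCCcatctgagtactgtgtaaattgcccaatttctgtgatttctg

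These 8 windows held 6 to 12 core words each, counting overlapping words, with the most in the window near Zbtb10. Among all 5793 closed regions a window of this length held on average 3.26 words per 100 bp, with an SD of 1.25 over regions. In the window near Zbtb10 the words lay on both sides of the summit, 7 of them with GGAA and 5 with GGGA. The Lyz2 window covers the start of Lyz2, the gene of lysozyme M, and held 5 GGAA and 2 GGGA words.

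The closed regions were weak at 0 h. Strength was the deposited fold of the summit over its local background, given as a percentile among all peaks of the same list. The median closed region stood at percentile 35.5 in 0 h replicate 1 and 33.1 in 0 h replicate 2, against 71.6 and 69.1 for the 47875 regions that had a peak in every list and are called open throughout here. It had 10 fragments at its summit in replicate 1 and 7 in replicate 2, against 23 and 17 in regions open throughout. The rule used these lists, so the levels are a description. Of the 69814 regions open at 0 h, 23.2% of those with a mean percentile up to 25 were closed regions, 14.4% of those from 25 to 50, 5.01% of those from 50 to 75 and 0.583% of those above 75.

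**Figure D1:**
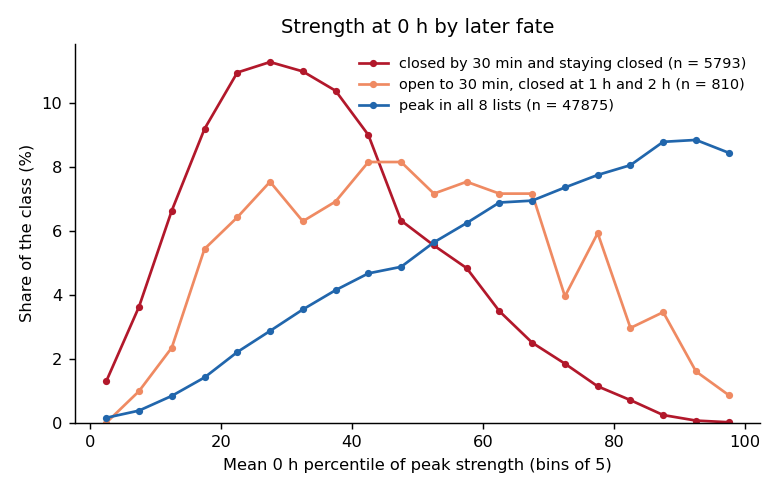
Mean percentile of peak strength over both 0 h lists (x axis, bins of 5) against the share of each class of regions (y axis, percent), for regions closed by 30 min and staying closed, regions open to 30 min and closed at 1 h and 2 h, and regions with a peak in all 8 lists. The closed regions are most frequent between percentiles 20 and 40 and the regions open throughout above 85.

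A minority of closed regions was nonetheless well covered. Both 0 h lists had more than 20 fragments at the summit in 228 closed regions, which is 1.09% of the 20935 regions with that coverage. A −log10 q-value of at least 5 in both 0 h lists was reached by 2731 closed regions (47.1%). A q-value depends on the local background as well as on fragments. In 0 h replicate 1 the closed regions had a median −log10 q-value of 6.83 and a median of 10 fragments.

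The rule drew a line through a graded set. Of the 69814 regions, 10.9% (7617) had no peak in either 30 min list, and 76.1% of these 7617 stayed without a peak in all 4 later lists. The other 1824 had a peak in at least 1 list of 1 h or 2 h. Just outside the rule, 2802 regions had a peak in both 0 h lists and in 1 treated list, most often that of 30 min replicate 1 (1169) and least often that of 2 h replicate 2 (193). Their median was 9.5 fragments over both 0 h lists, against 8.5 in the closed regions, and 6 fragments in the treated list that held the peak. On the other side, 14576 regions had a peak in only 1 of the 8 lists, a 0 h list, with a median of 6 fragments for those of replicate 1 and 4 for those of replicate 2.

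The 20 strongest closed regions had 22 to 63 fragments in 0 h replicate 1 and 15 to 40 in 0 h replicate 2. Of these, 7 lay in introns, 12 between genes and 1 at a promoter, and 13 lay more than 20 kb from the nearest start of a protein-coding gene. They stood between mean percentiles 84.3 and 95.4. By strength these were strong open regions of untreated cells, where the median of all regions open at 0 h was percentile 59.2. None of the 20 had a peak in any treated list. The nearest peak of any treated list was at a median of 2044 bp from their edges.

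**Figure D2:**
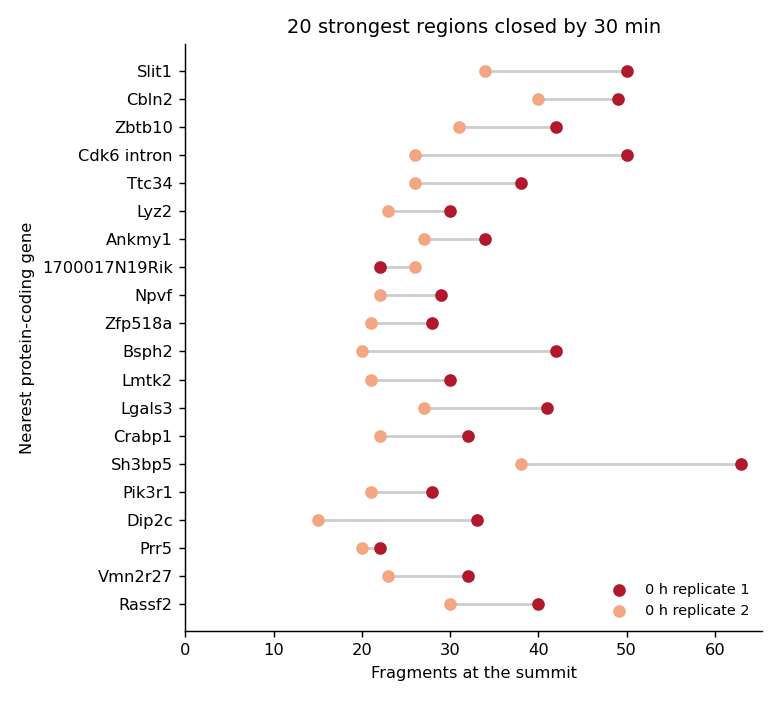
Fragments at the summit (x axis) in both 0 h lists for the 20 strongest closed regions, named by the nearest protein-coding gene or by the gene whose intron holds them (y axis, strongest at the top). Each point is 1 library, and 19 of the 20 regions had more fragments in replicate 1, the deeper library.

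The strongest closed region lay in an intron of Slit1, the gene of an axon guidance ligand, at chr19:41672856-41673103. It had 50 fragments in 0 h replicate 1 and 34 in replicate 2, over a local background of 1.02 and 0.652. The deposited fold, which adds 1 to both fragments and background, was 25.3 and 21.2. A region between genes on chromosome 18, 63624 bp from the start of Cbln2, had 49 and 40 fragments. A region near Zbtb10, a zinc finger gene, at chr3:9302666-9302862 had 42 and 31 fragments and lay 84 bp from a region that kept its peak in all 8 lists. Here a peak was lost beside one that stayed.

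Cdk6, a kinase that drives cells through G1, held a closed region in an intron at chr5:3490458-3490645, with 50 and 26 fragments at 0 h. The nearest peak of a treated list was 3482 bp away. At the start of Lyz2 the closed region at chr10:117282184-117282441 had 30 and 23 fragments, with the nearest treated peak 9398 bp away and the nearest region open throughout 40305 bp away. A region open throughout lay 6854 bp from the Cdk6 region, and the median of this distance over closed regions was 7764 bp. A second closed region of the Lyz2 locus, at chr10:117301725-117301920 near Lyz1, was weaker, with 7 and 8 fragments.

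Other strong closed regions differed in their surroundings. The one between genes whose nearest protein-coding start is that of Pik3r1, 302561 bp away, had 28 and 21 fragments and lay farthest of the 20 from such a start. The one in an intron of Rassf2, a gene with a Ras association domain, had 40 and 30 fragments and lay 435 bp from a region open throughout. The one in an intron of Sh3bp5, whose product binds the kinase Btk, had 63 and 38 fragments, the most of the 20 in replicate 1. It also had the highest local background of the 20 in both libraries, 2.35 and 1.77 fragments, and lay 21 bp from a region with a peak in all 8 lists.

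Many closed regions were close to chromatin that stayed open. A region with a peak in all 8 lists lay within 1 kb of 1112 closed regions (19.2%) and between 1 kb and 10 kb of 2113 (36.5%), while 2568 (44.3%) had none within 10 kb. In 0 h replicate 1 the median local background of these 3 sets was 1.60, 0.667 and 0.389 fragments, and the median summit had 15, 11 and 8 fragments. The median percentile was nearly flat over the 3 sets, at 32.7, 33.8 and 32.2. A closed region beside open chromatin therefore held more fragments at the same fold. A peak of any treated list came within 100 bp of 309 closed regions (5.33%), and with peaks up to 100 bp apart merged as well 5503 closed regions were counted.

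The closed regions were mostly away from gene starts. Of the 5793, 47.0% (2725) had their summit in an intron, 37.6% (2178) between genes, 11.7% (680) lay within 1 kb of an annotated start site, 1.28% (74) in a coding exon and 2.35% (136) in another exon. Start sites made up 17432 of the 69814 regions open at 0 h, and 29.8% of those open throughout. Read the other way, 3.90% of these 17432 promoter regions were closed regions, against 9.81% of introns and 9.77% of intergenic regions. The median distance to a protein-coding start was 25.6 kb in closed regions, 22.9 kb in the 810 regions that kept a peak to 30 min and had none at 1 h and 2 h, and 12.9 kb in regions open throughout.

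Promoters were less frequent at each level of strength. Up to percentile 25, 13.1% of closed regions and 19.0% of regions open throughout were promoters, and above percentile 75 the shares were 7.94% and 39.7%. The share of 0 h regions that were closed ranged only from 7.25% to 9.36% over the 20 chromosomes with at least 50 closed regions. The closed regions were spread over the genome.

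After Lyz2, the strongest closed regions at the starts of named protein-coding genes were picked after their values were seen. The region at Speg, a gene of a muscle kinase, had 24 fragments in 0 h replicate 1 and 23 in replicate 2. The region at Pqlc1 had 39 and 25. The region 954 bp from a start of Ehmt1, which encodes a histone H3K9 methyltransferase, had 19 and 17 fragments. The region at Grb7, an adaptor of receptor kinases, had 25 and 19, and the one at Mmrn1, which encodes a protein of platelets and endothelium, had 23 and 17.

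The closed regions were rich in Ikaros core words. The words were GGAA and GGGA on both strands, which are the words that the study counted, and overlapping matches were counted. Closed regions held 3.26 ± 1.25 words per 100 bp (SD over 5793 regions), against 2.83 ± 1.18 in the 810 later-closing regions, 2.20 ± 1.18 in the 47875 regions open throughout and 2.40 over all 69814. At least 5 words in 200 bp were held by 79.3% of closed regions, 67.3% of later-closing regions and 44.1% of regions open throughout. The spread over regions is wide, so the word count of 1 region does not tell its class.

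The share of 0 h regions that closed was higher at each step of the word count. It was 0.442% of the 1130 regions with no core word, 1.63% with 1 or 2 words, 4.60% with 3 or 4, 9.71% with 5 or 6, 15.6% with 7 to 9 and 23.0% of the 2900 regions with 10 or more. The order of the steps was the same in promoters, from 0.538% with no word to 11.2% with 10 or more, and in all other places, from 0.424% to 29.4%. Within the 4 bands of 0 h strength no step was lower than the one before it. Up to percentile 25 the closed share went from 2.56% of 156 regions without a word to 52.8% of 299 regions with 10 or more, and above percentile 75 from 0 of 275 with no word and 0 of 3183 with 1 or 2 words to 2.97% of 909. These are shares of regions and carry no test, since regions of 1 library are not replicates.

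**Figure D3:**
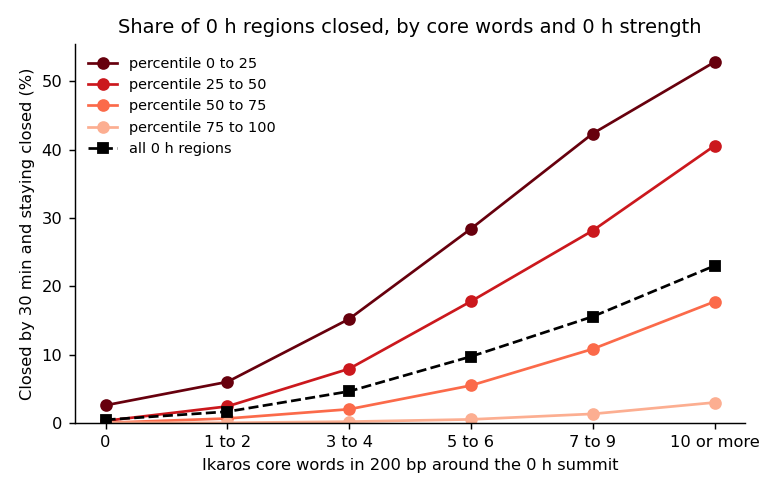
Number of Ikaros core words in 200 bp around the 0 h summit (x axis) against the percent of regions open at 0 h that had no peak from 30 min on (y axis), for 4 bands of 0 h percentile (coloured lines) and for all 69814 regions (dashed line). No line goes down with the word count, the strongest band is at 0 up to 2 words, and the weakest band reaches 52.8% while the strongest reaches 2.97%.

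The words were concentrated at the summit. In bins of 20 bp, closed regions held 3.83 words per 100 bp in the bin 10 bp before the summit and 2.21 in the bin 290 bp before it. Regions open throughout were flat, with 2.34 and 2.24 in the same bins. Later-closing regions had a lower peak, with 3.57 words per 100 bp in the bin 10 bp after the summit. Beyond 200 bp the 3 classes differed little.

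**Figure D4:**
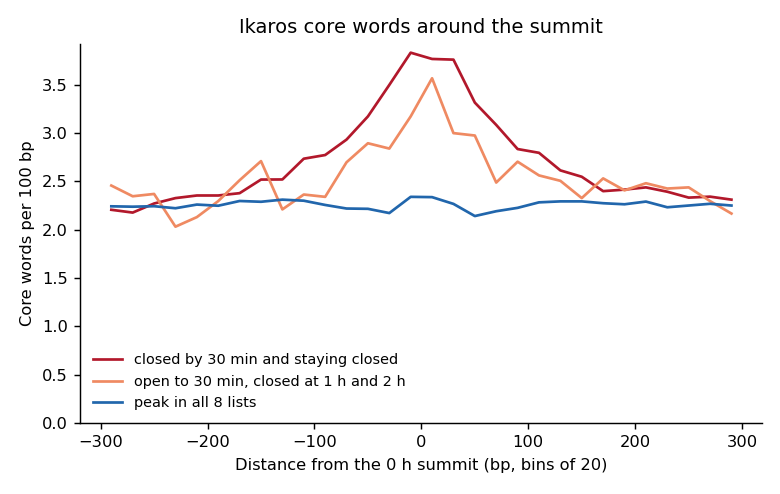
Distance from the 0 h summit (x axis, bp, bins of 20) against Ikaros core words per 100 bp (y axis) in closed regions, later-closing regions and regions with a peak in all 8 lists. The closed regions reach 3.83 words per 100 bp at the summit and come down to the level of the open regions toward the edges.

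The difference in words was present at each level of strength. Up to percentile 25 the mean was 3.08 words per 100 bp in closed regions and 1.84 in regions open throughout, and above percentile 75 it was 3.82 and 2.39. In promoters it was 3.48 and 2.48, and elsewhere 3.23 and 2.09. On each of the 20 chromosomes with at least 50 closed regions the closed regions had the higher mean, between 3.04 and 3.43, against 2.12 to 2.29. GC content was 50.0% in closed regions and 52.7% in regions open throughout. Outside promoters it was 49.5% in both, in promoters 53.6% and 60.3%, and above percentile 75 it was 50.8% and 54.6%.

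Both kinds of core contributed. GGAA words numbered 1.77 per 100 bp in closed regions and 1.11 in regions open throughout, and GGGA words 1.49 and 1.09. The longer word GGGAA, in which both cores overlap, was present on either strand in 63.0% of closed regions and 43.5% of regions open throughout. The GGAA core had the larger difference between the classes.

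Of all 2080 words of 6 letters, with a word and its reverse complement taken as 1, the word whose share differed most was AGGAAG, present in 59.2% of closed regions and 34.1% of regions open throughout. CAGGAA followed with 49.2% and 27.3%, and AGGAAA with 39.4% and 22.1%. Of the 20 words with the largest surplus in closed regions 16 held a core word, and of the 20 with the largest deficit none did, while 88 of all 2080 hold one. A CG step was in 17 of those 20 words in deficit and in none of the 20 in surplus. This search over all words was chosen after values were seen and is a description.

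Words of other factors differed in both directions. The CTCF motif, the site of the insulator protein, was found in 21 closed regions (0.363%), in 9.01% of regions open throughout and in 7.19% of all regions open at 0 h. The KLF and SP word GGGCGG was present in 5.45% of closed regions and 18.9% of regions open throughout. The Ebf1 motif, the palindromic site of the early B cell factor, was present in 6.51% and 2.18%, but it holds 2 Ikaros core words, so its count is not independent of theirs. The Runx word TGTGG was in 66.6% and 56.0%, the E-box CANNTG in 71.2% and 67.9%, the AP-1 word TGANTCA in 7.91% and 6.65% and the forkhead word GTAAACA in 1.43% and 2.21%. CpG-rich sequence, as in promoters, was rarer in closed regions, with 2.67 CG steps per 200 bp against 6.10.

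Within 20 kb of a protein-coding start lay 2571 closed regions (44.4%), near 3162 genes. Of these genes 2675 had 1 closed region, 416 had 2, 59 had 3, 10 had 4 and 2 had 5. The closed regions were 6.66% of the 38576 open regions within this distance, against 8.30% of all. Over all regions open at 0 h, 16487 genes had at least 1 within this distance. How closed regions would spread over genes at this share was not tested.

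Limch1, which acts on actin and myosin, had 5 closed regions, out of 12 open regions at 0 h around the gene. They had 7 to 24 fragments in 0 h replicate 1 and 5 to 17 in replicate 2, and the strongest held 12 core words in 200 bp. Around Brd7, a bromodomain subunit of a chromatin remodelling complex, all 4 regions open at 0 h were closed regions, with 8 to 19 and 5 to 11 fragments. Brd7 was the one gene of the 10 with the most closed regions at which no 0 h region within 20 kb stayed.

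Of the other genes with 4 closed regions, the 7 whose closed regions had the highest mean percentile were Tmbim6 of 9 open at 0 h, Gas2l3 of 10, Phc2 of 9, Dock9 of 8, Flrt1 of 10, Spred1 of 11 and Osgin1 of 10. Phc2 encodes a Polycomb subunit, Spred1 a restrainer of Ras signalling and Dock9 an activator of Cdc42. The 4 near Osgin1 had the most fragments of these sets, 27 to 54 in 0 h replicate 1 and 19 to 41 in replicate 2, but a mean percentile of 22.8. They lay 12075 to 17854 bp from the gene start in chromatin with a high local background.

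For gene lists drawn up for a pre-B cell, closed regions within 20 kb of a start were counted among all regions open at 0 h there and read against 8.30% of all regions open at 0 h and 6.66% of those within 20 kb of any protein-coding start. For pre-BCR signalling the count was 11 of 118 (9.32%) near 10 of 19 genes, for the IL-7 receptor and JAK-STAT5 8 of 85 (9.41%) near 7 of 15, for adhesion and homing 12 of 140 (8.57%) near 10 of 26, and for genes called repressed in the study's text 8 of 109 (7.34%) near 7 of 18. The last list was chosen by the study on cells of the same experiment. For cell cycle genes it was 8 of 120 (6.67%), for B-lineage transcription factors 13 of 202 (6.44%), for sterol synthesis 5 of 78 (6.41%) and for pre-BCR and surrogate light chain genes 4 of 63 (6.35%). Lists not tied to the stage had 7 of 142 (4.93%, signal-dependent and AP-1), 5 of 109 (4.59%, ribosomal proteins) and 3 of 80 (3.75%, T-lineage and Notch), and the myeloid list had 7 of 52 (13.5%). With counts this small and some regions shared between lists, no list is set apart from either background by these values.

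Among B-lineage transcription factors, Fli1, an Ets family gene, had the strongest closed regions. One lay upstream at chr9:32560590-32560868 with 52 fragments in 0 h replicate 1 and 31 in replicate 2, and one in an intron at chr9:32529675-32529931 with 28 and 19. An intronic region of Ikzf1, the gene of Ikaros itself, at chr11:11689045-11689286 had 35 and 25 fragments, and lay 667 bp from a region open throughout. A region 7605 bp from a start of Ikzf4, an Ikaros family gene, had 25 and 11, and lay 190 bp from a peak of a treated list. In each of these the 0 h peak was present in both libraries at more than 10 fragments.

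Of the IL-7 receptor list, the strongest closed region lay within 20 kb of Il2rg, the common cytokine receptor chain, with 18 and 16 fragments. Its nearest start, 11 bp away, was that of Gm20489, and a peak of a treated list lay 184 bp away. Another, in an intron of Stat5a that also lies within 20 kb of Stat5b, had 17 and 15 fragments and 11 core words in 200 bp. Near Pim1, a kinase gene downstream of STAT5, a region had 15 and 23 fragments, and near Cish, a feedback inhibitor, 7 and 7.

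Of the pre-BCR list, a closed region overlapped a start of Cd24a, a surface glycoprotein of early B cells, with 23 and 18 fragments at percentile 27.0. A region 779 bp from a start of Cd79a, the receptor's signalling chain, had 15 and 22 fragments, while 2 other regions within 1 kb of a Cd79a start kept a peak in all 8 lists. The Cd79a promoter therefore stayed open beside the lost peak. A region 5651 bp from Igll1, which also lies within 20 kb of Vpreb1, had 12 and 17 fragments. Igll1 and Vpreb1 encode the surrogate light chain. By fold the closed regions near Igll1 and Cd79a were weak, at percentiles 0.140 and 0.570 in 0 h replicate 1 and 28.9 and 37.4 in replicate 2.

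Of the genes called repressed in that text, Itga5, an integrin chain, had 2 closed regions. The one 17051 bp from its start had 36 and 22 fragments. The nearer one had 28 and 26, and lay 50 bp from a start of Gm37322. Lrrfip1 had intronic closed regions with 9 and 8 and with 18 and 11 fragments. Of adhesion genes, Cd44 had an intronic closed region with 20 and 12 fragments, and Cxcr4, the receptor that holds pre-B cells in the marrow, one at 19619 bp with 28 and 21. Of cell cycle genes, Mycn had an intronic one with 15 and 16, and Cdkn1b, a cell cycle inhibitor, one in an exon with 27 and 15.

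Whether open chromatin around the closed regions also changed was tested on regions that kept a peak in all 8 lists and so took no part in the rule. All 47875 were ranked in each list by fold, and the ranks were compared with 0 h by limma with Benjamini-Hochberg adjusted p under 0.01. Of them, 5653 lay within 10 kb of a closed region. At 2 h, 328 of the 5653 were lower (5.80%) and 131 higher (2.32%), against 4.71% lower and 2.28% higher of all tested regions. At 1 h, 172 were lower (3.04%) and 74 higher (1.31%), against 2.51% and 1.10%. These shares are near the background of all regions. Without 0 h replicate 1 or 0 h replicate 2, far fewer regions were called at 1 h and 2 h, near closed regions and over all regions alike. The same held at 1 h without either 1 h library and at 2 h without either 2 h library.

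At 30 min no region passed limma's adjusted p of 0.01, near closed regions or elsewhere. At an unadjusted p under 0.05 there were 1230 of the 5653 (21.8%), 600 of them lower, and 9311 of all 47875 (19.4%), 4759 of them lower. With a mean trend and a robust prior limma called 24 lower (0.425%) and 31 higher (0.548%) near closed regions, against 0.437% and 0.328% of all. The share called lower had no steady order by distance, though it was lowest beyond 50 kb, a difference that was not tested. At 2 h it was 6.88% lower of the 1250 regions within 1 kb of a closed region, 4.34% from 1 to 5 kb, 6.58% from 5 to 10 kb, 5.68% from 10 to 50 kb and 4.10% farther away.

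Single neighbours nonetheless moved far. A region in an intron of Ccdc138 at chr10:58544378-58544747, 7766 bp from a closed region, had 54 and 53 fragments in the 0 h libraries, 6 and 8 after 30 min, 6 and 6 after 1 h and 5 and 8 after 2 h. Its percentile among tested regions was 96.3 ± 2.95 (SD, n = 2) at 0 h and 5.99 ± 7.67 at 2 h, with limma's adjusted p of 0.00142. It kept a peak in every list but a weak one, and by level it was already low at 30 min.

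In an intron of Ebf1, a factor that specifies the B lineage, the region at chr11:44920071-44920450 fell from percentile 96.3 ± 2.49 to 10.4 ± 9.84 at 2 h (limma adjusted p 0.00135). The 0 h libraries had 92 and 59 fragments there, and the 2 h libraries 12 and 8. The closed region 8042 bp away in the same gene had 6 and 8 fragments at 0 h. Regions in introns of Syne3 and Fam234b fell by 85.1 and 84.7 percentile points, and one 33088 bp from Jak1, a kinase of the IL-7 receptor, by 84.5, with adjusted p of 0.00118, 0.00144 and 0.00106 in limma. The closed region next to the one in Fam234b was strong, with 46 and 45 fragments at 0 h, and the one next to Syne3 had 17 and 13. These regions were named for the size of their fall.

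The largest rise near closed regions was in an intron of Sgms1, a sphingomyelin synthase gene, from percentile 17.5 ± 6.75 at 0 h to 96.0 ± 0.235 at 2 h (limma adjusted p 0.000958). It had 9 and 8 fragments in the 0 h libraries, 34 and 23 after 30 min and 54 and 52 after 2 h. A closed region with 10 and 9 fragments at 0 h lay 1581 bp away in the same gene, so a loss and a gain stood side by side. Regions near Trim56, Ankrd55, Cdk17 and Leo1 rose by 76.3, 74.9, 73.2 and 72.1 percentile points at 2 h. Their adjusted p in limma ranged from 0.00117 to 0.00232.

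**Figure D5:**
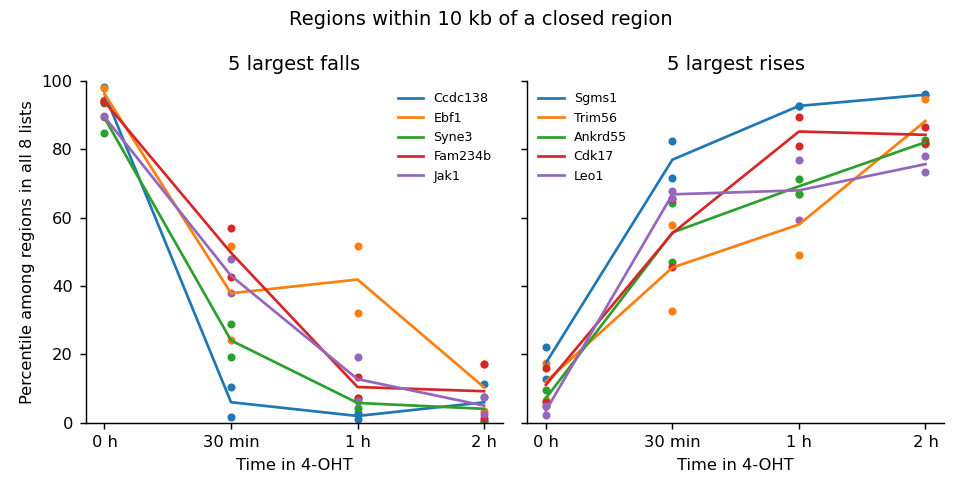
Percentile among the 47875 tested regions (y axis) at each time in 4-OHT (x axis) for the 5 regions with the largest falls (left) and the 5 with the largest rises (right) from 0 h to 2 h among those within 10 kb of a closed region and past limma's threshold. Lines join the means and each point is 1 library. In all 10 regions the mean at 30 min lies between those of 0 h and 2 h.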

How the data were processed

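Per the labels and the study's methods, ATAC-seq reads were aligned with BWA (0.7.17), shifted for the Tn5 offset, limited to fragments of at most 120 bp with deepTools (2.3.5), and peaks were called per library with MACS2 (2.1.2). The methods text names a human build, but all peaks lie inside GRCm38 chromosomes. The study's exclusion list and count table were not used here. The deposited lists give, per peak, the ratio of the summit to local background with 1 added to each (fold), a −log10 p-value and a −log10 q-value of at least 1.3.

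From these, peaks overlapping by at least 1 bp were merged. Fragments at a summit and local background were solved from the deposited fold and −log10 p-value under the caller's Poisson model with a pseudocount of 1, which gave whole fragments for 100.0% of peaks. Percentiles are ranks of the fold within a list. The region's highest peak was used. Start sites, exons and introns are those of GENCODE M21 basic transcripts, and a region within 1 kb of any start is a promoter. Words were counted with pysam (0.24.0) in 200 bp around the summit of 0 h replicate 1. For change in rank, normal scores of the ranks were fitted with limma (3.58.1, R 4.3.3) over 4 groups and adjusted over 47875 regions. Limma and the merging were tested on simulated data.

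Named were the 20 strongest closed regions (8 with sequence, none on chromosome 18), up to 4 per gene list, the 10 genes with the most closed regions within 20 kb, and the 5 largest falls and rises among called neighbours, of which some items are not reported here. The closed regions and gene lists were chosen with earlier results of these data known. Intervals for fragments would cover counting error only and are not given.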

Additional observations from a re-analysis of the deposited data

How the results depend on the processing

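The number of closed regions was 2731 when 0 h peaks needed a −log10 q of at least 5, and 4711 when peaks of all lists did. Without 1 library each, it ranged from 5986 to 13732, the high values being those without 0 h replicate 2 (13732) and 0 h replicate 1 (12430), since 1 list then sets what was open. Lists of equal length, summit windows and merging within 100 bp gave 5503 to 6479. The median 0 h percentile was 49.5 with a −log10 q of at least 5 in all lists and 35.5 in 0 h replicate 1 alone. The promoter share was 6.84% within 500 bp, 12.8% with a −log10 q of at least 5 and 8.53% for protein-coding starts only, each below that of all 0 h regions (20.6%, 28.0% and 20.98%). Core words per 100 bp were 3.53 in 100 bp windows and 0.476 for GGGAA alone, and, in alternatives chosen after seeing the data, 3.16 in windows free of masked repeats and 3.85 with over 20 fragments in both 0 h lists, each above that of regions open throughout (2.19, 0.287, 2.23 and 2.45).

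Near closed regions an adjusted p under 0.05 gave 107 lower (1.89%, against 1.49% of all regions) and 72 higher (1.27% against 0.702%) after 30 min, 541 (9.57% against 8.18%) and 329 (5.82% against 5.74%) after 1 h, and 716 (12.7% against 11.1%) and 428 (7.57% against 8.34%) after 2 h. After 30 min a mean trend and a robust prior gave 24 lower (0.425% against 0.437% of all) and 31 higher (0.548% against 0.328%). After 1 h they gave 285 lower (5.04% against 4.43%) and 184 higher (3.25% against 3.10%). After 2 h they gave 453 lower (8.01% against 6.83%) and 241 higher (4.26% against 4.71%). Without 1 library each, the counts ranged at 1 h from 0 to 141 lower and 0 to 50 higher, and at 2 h from 24 to 277 lower and 1 to 98 higher, where each such fit has fewer libraries. Libraries of the same replicate number hardly deviated together (correlations of 0.0172 to 0.0403), so the numbers were not taken to pair the libraries. With the replicate number as a block, 127 were lower (2.25% against 1.88% of all) and 47 higher (0.831% against 0.714%) at 1 h. At 2 h 274 were lower (4.85% against 3.98%) and 104 higher (1.84% against 1.80%). Peaks of few fragments limit every count of closed regions.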
